A study of Mus musculus with 4 samples.

Results

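The genes described here are 7 mouse solute carriers of the Slc22 family: Slc22a3, Slc22a7, Slc22a26, Slc22a27, Slc22a28, Slc22a29 and Slc22a30. They were chosen by name with their values on these arrays already known, and their probes were found by matching each probe's accession to the gene. Of the 7 genes, 6 had a probe, with 7 probes in all among 39429 probes and 20886 named genes, and the expression of Slc22a30, which matched no probe, was not analysed here. The arrays carried liver RNA of male mice, 1 array for each of 4 groups: catalase knockout on a high-fat diet, catalase knockout on a normal diet, wild type on the high-fat diet and wild type on the normal diet. The high-fat diet gave 60.3% of calories as fat and the normal diet 18%, each for 11 weeks, between 29 and 40 weeks of age. Catalase is an enzyme of peroxisomes that turns hydrogen peroxide into water and oxygen. The labels do not say how the knockout was made, which strain was used or whether an RNA sample came from 1 animal or a pool.

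SLC22 proteins are membrane carriers with a broad choice of small charged substrates. The organic anion transporters (OATs) move drugs, steroid conjugates and metabolites such as urate, the organic cation transporters (OCTs) move monoamines and cationic drugs, and the OCTN group moves carnitine and related zwitterions. In liver these proteins sit mainly on the blood-facing membrane of hepatocytes. Mice and rats carry extra OAT genes next to the genes of the kidney transporters OAT1 and OAT3, and several of these extra genes are known for sex-biased expression in rodent liver, a bias set by the pattern of growth hormone release through STAT5b.

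In the RefSeq gene order of mouse chromosome 19, Slc22a19, Slc22a26, Slc22a27, Slc22a28, Slc22a29, Slc22a30, Slc22a8 and Slc22a6 follow one another with no other protein-coding gene between them, although 13 other records (noncoding genes and pseudogenes) lie in the block. On chromosome 17, Slc22a3 (OCT3) and Slc22a2 (OCT2) are neighbours, and Slc22a7 (OAT2) lies elsewhere on that chromosome. The promoters of 4 genes of the chromosome 19 block are shown because 3 of these genes shared a low signal in wild type on the normal diet and the other, Slc22a28, had its highest signal there. Each is the 250 bases before the gene's start on the minus strand of chromosome 19, from RefSeq on GRCm38.p6, at chr19:7802668-7802917 for Slc22a26, chr19:7966028-7966277 for Slc22a27, chr19:8131983-8132232 for Slc22a28 and chr19:8218901-8219150 for Slc22a29. Capitals mark GTTAAC or TTCNNNGAA.
Slc22a26: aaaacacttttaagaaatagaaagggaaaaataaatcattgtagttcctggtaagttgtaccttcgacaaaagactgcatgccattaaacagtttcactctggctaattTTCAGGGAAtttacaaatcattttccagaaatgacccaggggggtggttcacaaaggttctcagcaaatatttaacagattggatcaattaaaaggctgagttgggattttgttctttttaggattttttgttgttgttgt
Slc22a27: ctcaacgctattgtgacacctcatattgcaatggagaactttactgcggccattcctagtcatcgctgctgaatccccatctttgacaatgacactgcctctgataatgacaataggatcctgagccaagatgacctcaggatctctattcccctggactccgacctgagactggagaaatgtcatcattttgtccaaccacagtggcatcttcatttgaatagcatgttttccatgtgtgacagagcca
Slc22a28: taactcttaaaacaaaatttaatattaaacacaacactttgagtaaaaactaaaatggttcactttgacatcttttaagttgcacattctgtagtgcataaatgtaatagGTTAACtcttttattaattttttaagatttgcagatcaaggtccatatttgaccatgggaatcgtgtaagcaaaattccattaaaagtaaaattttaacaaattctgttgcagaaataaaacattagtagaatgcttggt
Slc22a29: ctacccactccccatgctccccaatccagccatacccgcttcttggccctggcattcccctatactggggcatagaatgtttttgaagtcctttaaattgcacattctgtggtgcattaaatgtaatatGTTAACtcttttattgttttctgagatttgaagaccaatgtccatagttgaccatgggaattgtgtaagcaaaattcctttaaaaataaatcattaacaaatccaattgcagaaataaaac

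The promoters of Slc22a28 and Slc22a29 were close in sequence, with 154 identical positions in a local alignment of 183 columns (84.2%). Slc22a28 and Slc22a30 were closer still, with 238 identical positions of 244 columns (97.5%). Slc22a27 and Slc22a29, whose signals over the 4 arrays were the most alike of the genes described here, aligned over only 36 columns with 26 identical positions. Slc22a26 and Slc22a28 shared 120 identical positions of 197 columns (60.9%). The palindrome GTTAAC occurred once each in Slc22a28, Slc22a29 and Slc22a30, at 140, 121 and 146 bases before the start, and in 2.56% of the 32851 promoter windows in the RefSeq table. TTCNNNGAA, the core letters of STAT sites, occurred in Slc22a26 alone among the 6 genes with a window, 141 bases before the start, and in 7.02% of all windows. TATAAA occurred in none of the 6 and in 12.4% of all windows. Both strands were searched, the marked motifs did not overlap, and a match is only a match of letters in a window beside 1 annotated start per gene.

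Signals are given as the scanner's background-subtracted intensity with the scanner's own error, which covers spot measurement and not the spread between animals. Differences are log2 values after each array was scaled to its 75th percentile. A gene is said to rise or fall only where the difference reached 2-fold with the probe well above background, by the scanner's flag, on both arrays, or where a bound against the detection floor reached 2-fold. There was no replicate of any group, so no p-value is given. Each array enters several comparisons, and the wild-type normal-diet array is shared by diet in wild type, genotype on the normal diet and the combined contrast.

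Slc22a27 and Slc22a29, both rodent members of the OAT branch, had by far their lowest signal in wild type on the normal diet. Slc22a27 had a signal of 1521 ± 152 in knockout on the high-fat diet, 604 ± 60.5 in knockout on the normal diet and 1267 ± 127 in wild type on the high-fat diet, against 107 ± 11.6 in wild type on the normal diet. The high-fat arrays of both genotypes were thus level, the knockout normal-diet array lay below them, and the wild-type normal-diet array stood far below the rest. Slc22a29 had 1088 ± 109, 538 ± 54.1 and 1018 ± 102 in the same order, against 97.7 ± 11.3 in wild type on the normal diet. The wild-type normal-diet array again stood far below the rest, and after scaling the high-fat arrays differed by 0.08 ± 0.20 on the log2 scale, with wild type the higher.

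With the high-fat diet in knockout, Slc22a27 rose 2.19-fold (1.13 ± 0.20 on the log2 scale), while Slc22a29 differed by 0.82 ± 0.20 and did not reach 2-fold, although it did without scaling, at 1.02. With the same diet in wild type, Slc22a27 rose by 3.54 ± 0.21, which is 11.6-fold, and Slc22a29 rose by 3.36 ± 0.22, which is 10.3-fold. Among 13735 genes measured on both arrays these ranked 5 and 7 from the top. Under normexp background correction the same differences were smaller, at 2.87 for Slc22a27 and 2.51 for Slc22a29. Between knockout and wild type on the high-fat diet the differences were 0.09 ± 0.20 for Slc22a27 and -0.08 ± 0.20 for Slc22a29, within the scanner error. On the normal diet, Slc22a27 was 5.64-fold higher in knockout than in wild type (2.49 ± 0.21) and Slc22a29 was 5.52-fold higher (2.47 ± 0.22), at ranks 10 and 11 of 13779 genes. Comparing knockout on the high-fat diet with wild type on the normal diet, Slc22a27 was 12.4-fold higher and Slc22a29 was 9.72-fold higher.

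The differences of Slc22a27 and Slc22a29 ran side by side in all 5 comparisons: Slc22a27's exceeded that of Slc22a29 by between 0.03 ± 0.31 and 0.35 ± 0.31 on the log2 scale. Whether these probes, or those of Slc22a26 and Slc22a28, also bind RNA of neighbouring paralogs, Slc22a30 included, was not tested, since probe sequences were not used here. Of the markers of other tissues, a list of 7 adipose and pancreas genes had a summed scaled signal of 4.69 in knockout on the high-fat diet, 0.47 in knockout on the normal diet, 3.37 in wild type on the high-fat diet and 0.65 in wild type on the normal diet. Only 2 or 3 of the 7 were well above background on any array, so the sums are not a shift of the whole list. Adipoq, Plin1 and Pnlip were not well above background on any array. Cpa1 was so only in knockout on the high-fat diet and Prss2 only in wild type on the normal diet. Cfd, the adipose serine protease adipsin, rose with the high-fat diet by 3.59 ± 0.21 on the log2 scale in knockout and by 2.81 ± 0.20 in wild type. Cela1, an elastase, rose with the diet 3.39-fold in knockout but differed by -0.84 ± 0.25 on the log2 scale in wild type. The part of these shifts in the values of Slc22a27 and Slc22a29 was not tested.

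**Figure D1:**
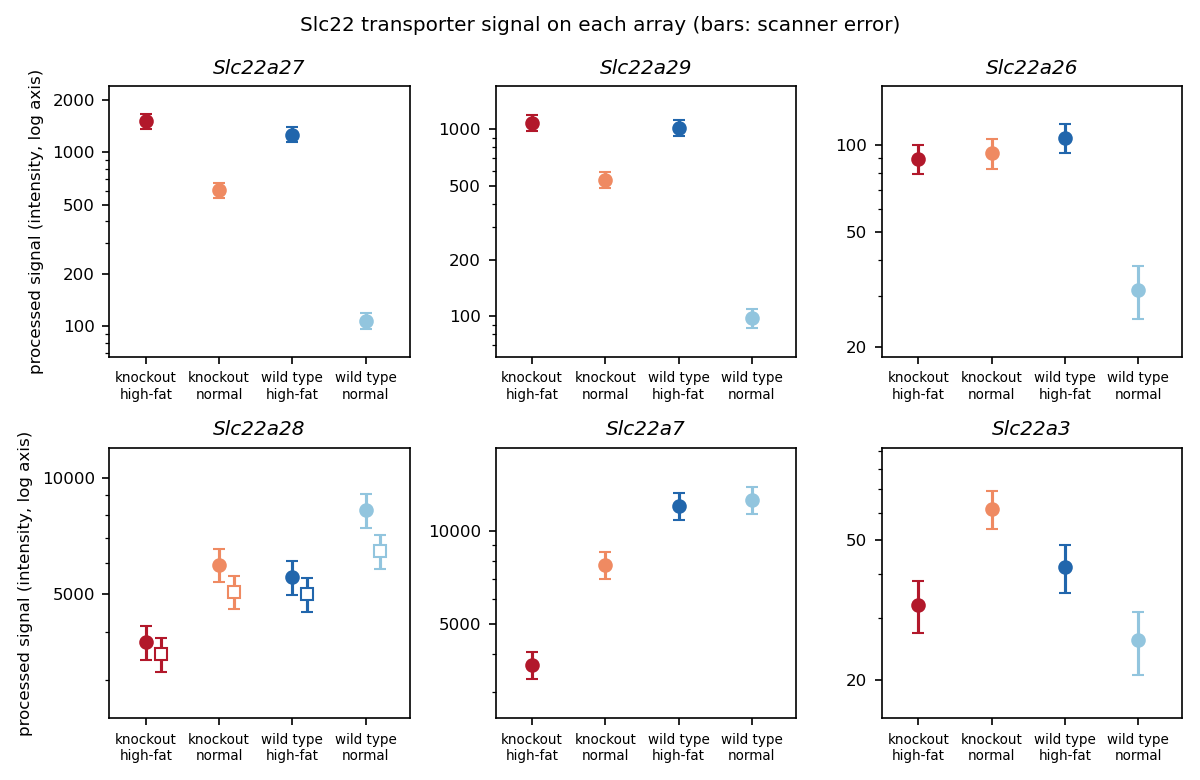
Processed signal (intensity, log axis, scaled separately in each panel) of the 6 Slc22 genes with a probe on each of the 4 arrays, with bars for the scanner error; open squares are the other Slc22a28 probe. Slc22a27, Slc22a29 and Slc22a26 have their lowest signal in wild type on the normal diet, where Slc22a7 and Slc22a28 have their highest.

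Slc22a26, a further member of the chromosome 19 OAT block, gave a dim signal of 89.5 ± 10.4 in knockout on the high-fat diet, 93.4 ± 10.9 in knockout on the normal diet and 106 ± 12.3 in wild type on the high-fat diet, against 31.6 ± 6.58 in wild type on the normal diet. The 3 higher arrays lay within 0.41 ± 0.24 of each other on the log2 scale, and only the wild-type normal-diet array stood apart. The dimmest signals counted as well above background on the 4 arrays were 21.5 to 24.2, so the low value lay close to that floor. Slc22a26 rose with the high-fat diet in wild type by 1.72 ± 0.34 and was higher in knockout than in wild type on the normal diet by 1.57 ± 0.34. In the combined contrast it was higher by 1.30 ± 0.34. These differences fell short of 2-fold under normexp background correction with an offset of 50, which draws dim signals together, at 0.60, 0.57 and 0.34. In knockout the diet difference was -0.26 ± 0.24.

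Slc22a28 lies between Slc22a27 and Slc22a29 in gene order, and its pattern ran the other way. Its brighter probe read 3751 ± 375 in knockout on the high-fat diet, 5959.9 ± 596 in knockout on the normal diet, 5519 ± 552 in wild type on the high-fat diet and 8253 ± 825 in wild type on the normal diet. The other probe read 3494, 5073, 4994 and 6468 in the same order, so both probes placed the knockout high-fat array lowest and the wild-type normal-diet array highest. Slc22a28 fell only in the combined contrast of knockout on the high-fat diet with wild type on the normal diet, by 1.33 ± 0.20 on the log2 scale (2.52-fold), and by 1.08 on the other probe. Whether either probe also reads Slc22a30, which had no probe of its own, was not tested. Each single step stayed under 2-fold: the diet difference was -0.87 ± 0.20 in knockout and -0.60 ± 0.20 in wild type, and the genotype difference was -0.73 ± 0.20 on the high-fat diet and -0.47 ± 0.20 on the normal diet.

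Slc22a7 encodes OAT2, a transporter of the hepatocyte's blood-facing membrane whose substrates include cyclic GMP and glutamate. Its signal was 3687 ± 369 in knockout on the high-fat diet, 7744 ± 774 in knockout on the normal diet, 12053 ± 1205 in wild type on the high-fat diet and 12611 ± 1261 in wild type on the normal diet. Both wild-type arrays were level, the knockout normal-diet array was lower, and the knockout high-fat array was lowest. Slc22a7 fell with the high-fat diet in knockout by 1.27 ± 0.20 on the log2 scale (2.41-fold), at rank 76 from the bottom of 13879 genes. On the high-fat diet it was 3.70-fold lower in knockout than in wild type (-1.89 ± 0.20), at rank 27 from the bottom of 13830 genes. The diet difference in wild type was -0.08 ± 0.20, within the scanner error, and the genotype difference on the normal diet was -0.70 ± 0.20.

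The array on which Slc22a7 and Slc22a28 were lowest also differed in cell-type markers. Macrophage markers, 10 of 10 of them well above background on every array, had a summed scaled signal of 85.0 in knockout on the high-fat diet, 30.7 in knockout on the normal diet, 45.0 in wild type on the high-fat diet and 37.1 in wild type on the normal diet. With the high-fat diet in knockout 8 of these 10 rose, where 4.22% of 14905 tested genes rose. On the high-fat diet 6 of 10 were higher in knockout than in wild type, where 2.51% of 14844 tested genes were higher. The 13 hepatocyte markers measured, all well above background on every array, summed to 3707, 4510, 4491 and 4774 in the same array order, with a median difference of -0.26 on the log2 scale for diet in knockout and -0.30 for genotype on the high-fat diet. Among them Cps1, a urea cycle enzyme, fell 2.14-fold with the diet in knockout and was 2.01-fold lower in knockout than in wild type on the high-fat diet. The 6 cholangiocyte markers, of which Epcam was well above background on no array and Krt7 only in wild type on the normal diet, summed to 1.80, 0.61, 0.73 and 1.12. Of them Spp1 rose with the diet in knockout 4.59-fold, and on the high-fat diet Spp1 was 3.42-fold and Tspan8 2.51-fold higher in knockout than in wild type. Sox9 went the other way, by -0.23 ± 0.07 on the log2 scale for diet in knockout and -0.49 ± 0.07 for genotype on the high-fat diet. Krt19 differed by 0.46 ± 0.23 and 0.28 ± 0.23 in the same comparisons. Stellate cell markers summed to 68.1, 46.7, 59.7 and 53.8, and endothelial markers to 37.9, 34.4, 36.4 and 34.3. Of 8 stellate markers 3 rose with the diet in knockout and 0 fell, where 4.22% of tested genes rose. They were Col1a1 (6.71-fold), Col3a1 (4.37-fold) and Timp1 (at least 16.1-fold). On the high-fat diet 2 of 8 were higher in knockout, where 2.51% of tested genes were. Of 7 endothelial markers Lyve1 alone rose with the diet, 2.82-fold in knockout and 3.54-fold in wild type. The part of these shifts in the Slc22a7 and Slc22a28 values was not tested, and in whole liver RNA fewer cells of a type and less RNA per cell cannot be told apart. Of 8 kidney markers, Umod, Slc5a2, Kap and Slc22a8 were not well above background on any array, while Slc34a1 and Slc22a6 were on all 4. Cubn was well above background only in knockout on the high-fat diet. Lrp2 was so only on the wild-type arrays, where it fell with the high-fat diet by 1.48 ± 0.25. The list summed to 0.36, 0.33, 0.40 and 0.50 in the same array order.

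Slc22a3 encodes OCT3, the extraneuronal monoamine transporter. Its signal was dim on all arrays, at 32.7 ± 5.61 in knockout on the high-fat diet, 61.7 ± 7.75 in knockout on the normal diet, 41.9 ± 6.61 in wild type on the high-fat diet and 25.9 ± 5.36 in wild type on the normal diet. The knockout normal-diet array was highest, and the wild-type normal-diet and knockout high-fat arrays differed by only 0.14 ± 0.39 on the log2 scale. Both of these lower values lay close to their arrays' detection floors, 21.5 in wild type on the normal diet and 22.0 in knockout on the high-fat diet. Slc22a3 fell with the high-fat diet in knockout by 1.12 ± 0.31 and was higher in knockout than in wild type on the normal diet by 1.26 ± 0.35. Neither reached 2-fold under normexp, at -0.58 and 0.37, and without scaling the first was -0.91. The diet difference in wild type was 0.67 ± 0.38.

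**Figure D2:**
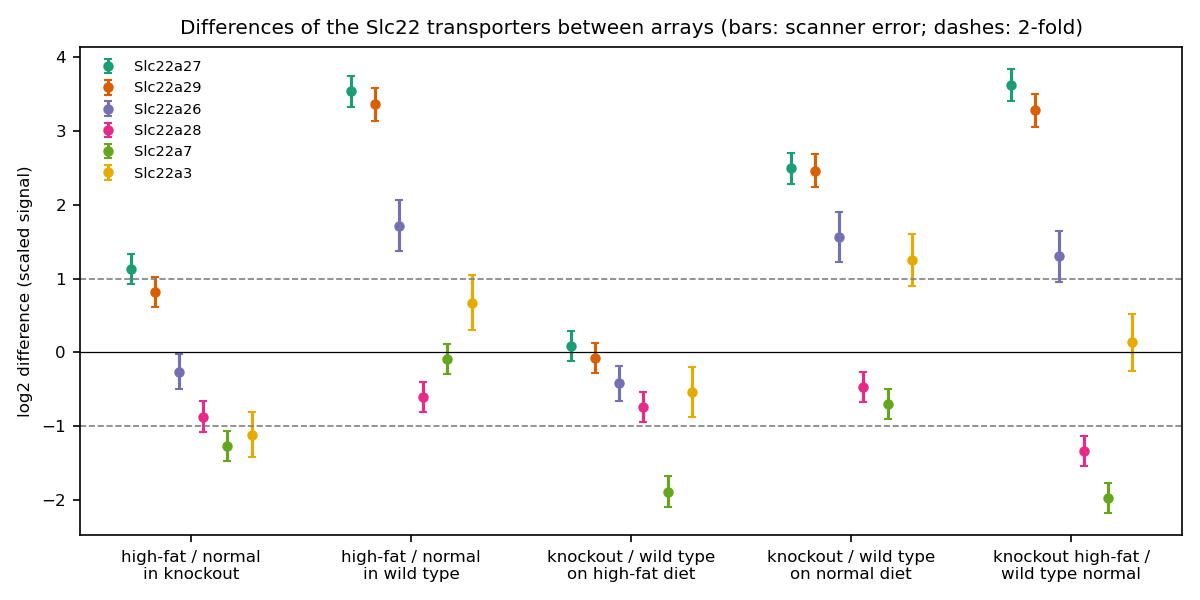
Log2 differences of scaled signal for the 6 Slc22 genes in 5 comparisons, with bars for the scanner error and dashed lines at 2-fold in either direction. Slc22a27 and Slc22a29 lie together in every comparison, at 3.54 and 3.36 for diet in wild type and near 0 between genotypes on the high-fat diet, where Slc22a7 is lowest at -1.89.

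Counted over the 6 genes measured, in knockout 1 rose with the high-fat diet (Slc22a27) and 2 fell (Slc22a3 and Slc22a7), where 4.22% of 14905 tested genes rose and 1.64% fell. In wild type 3 rose with the diet (Slc22a26, Slc22a27 and Slc22a29) and 0 fell, where 1.78% of 14636 genes rose and 2.31% fell. Between genotypes on the high-fat diet, 0 were higher in knockout and Slc22a7 alone was lower, where 2.51% of 14844 genes were higher and 1.59% lower. On the normal diet 4 were higher in knockout than in wild type (Slc22a3, Slc22a26, Slc22a27 and Slc22a29) and 0 were lower, where 1.4% of 14702 genes were higher and 2.5% lower. Under normexp this last count was 2, Slc22a27 and Slc22a29. Between knockout on the high-fat diet and wild type on the normal diet, 3 were higher (Slc22a26, Slc22a27 and Slc22a29) and 2 were lower (Slc22a7 and Slc22a28), where 4.04% of 15091 genes were higher and 3.81% lower. The genes were chosen with these differences known, so their counts describe the choice. The median difference over the 6 genes was -0.57 for diet in knockout, 1.20 for diet in wild type, -0.47 for genotype on the high-fat diet and 1.41 for genotype on the normal diet. Over all genes measured on both arrays, 13879, 13735, 13830 and 13779 of them, these medians were -0.07, -0.02, -0.04 and -0.01.

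The diet difference in knockout minus that in wild type was below -1 on the log2 scale for 5 of the 6 genes, where 1.28% of 13551 genes lay below -1 and 3.73% above 1. It was -2.55 ± 0.30 for Slc22a29, -2.41 ± 0.30 for Slc22a27, -1.98 ± 0.42 for Slc22a26, -1.79 ± 0.48 for Slc22a3 and -1.19 ± 0.29 for Slc22a7, and -0.27 ± 0.29 for Slc22a28. These values were reached in different ways. For Slc22a27 and Slc22a29 the knockout normal-diet signal already lay well above that of wild type on the normal diet, and for Slc22a7 the wild-type arrays were level while the knockout arrays differed. With 1 array per group this difference of differences was not tested, and under normexp Slc22a26 came to -0.82 and Slc22a3 to -0.71.

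The rest of the Slc22 family is given for its values only, since the 6 genes were chosen with their differences known and a wide span in them follows from that choice. Of 17 other family genes read here, 10 were well above background on all 4 arrays and 7 on none: Slc22a2, Slc22a8, Slc22a12, Slc22a14, Slc22a19, Slc22a20 and Slc22a22. Among the 10, the span between the highest and the lowest array had a median of 0.28 on the log2 scale and ran from 0.12 to 1.91. For the 6 genes described here the span had a median of 1.85 and ran from 1.26 to 3.63, which overlaps the others, as Slc22a16 had the span of 1.91. Over 13551 genes measured on all arrays the median span was 0.36. Slc22a19, which comes before Slc22a26 in the chromosome 19 block, was well above background on no array, and Slc22a6 (OAT1), at the other end of the block, spanned 0.22.

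Of these 10 genes, 2 fell with the high-fat diet in knockout, where 1.64% of 14905 tested genes fell. Slc22a16, known in humans as a carnitine transporter, fell by 1.27 ± 0.37, and Slc22a4, the ergothioneine transporter OCTN1, fell by 1.21 ± 0.21. Slc22a16 was also lower by 1.91 ± 0.35 on the log2 scale in knockout on the high-fat diet than in wild type on the normal diet. Its signal in knockout on the high-fat diet, 24.9, lay close to that array's detection floor of 22.0. Slc22a5, the carnitine transporter OCTN2, had signals of 1166 in knockout on the high-fat diet, 718 in knockout on the normal diet, 761 in wild type on the high-fat diet and 530 in wild type on the normal diet. Its difference in the combined contrast was 0.94 ± 0.20, under 2-fold.

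**Figure D3:**
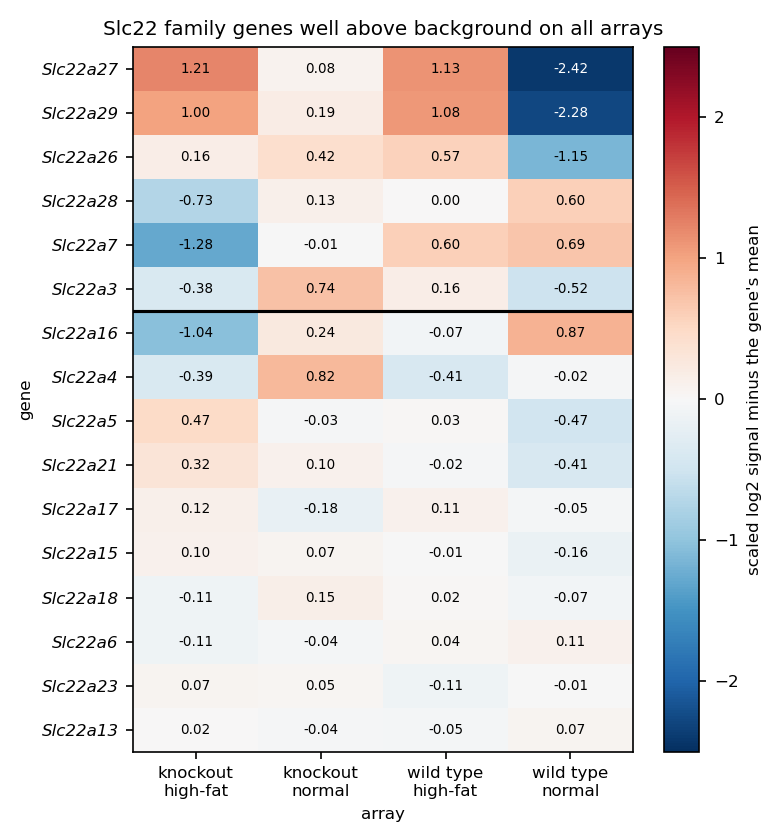
Scaled log2 signal minus the gene's mean over the 4 arrays for the Slc22 genes well above background on every array, with the 6 genes described here above the line and 10 other family genes below it, ordered by span. Most cells below the line are near 0, with Slc22a16 and Slc22a4 as the widest exceptions.

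Other transporters of liver were read as lists chosen for their role. Of 14 other uptake transporters tested, 0 rose in any of the 5 comparisons, a count near the 1.4% to 4.22% of all tested genes that did. With the high-fat diet 4 fell in knockout and 3 in wild type, where 1.64% and 2.31% of all tested genes fell. In knockout 3 were lower than in wild type on the high-fat diet and 1 on the normal diet, where 1.59% and 2.5% of all tested genes were lower. Slco1a1, a male-biased organic anion uptake transporter, fell with the diet by 2.49 ± 0.20 on the log2 scale in knockout and by 1.08 ± 0.20 in wild type. Slc13a2, a citrate and dicarboxylate carrier, fell by 2.90 ± 0.29 and by 2.54 ± 0.24, and Slco2a1, the prostaglandin transporter, by 1.68 ± 0.20 and by 1.59 ± 0.20. Of 15 efflux transporters, 1 rose with the diet in each genotype, where 4.22% of all tested genes rose in knockout and 1.78% in wild type: Abcc1 in knockout (1.28 ± 0.31) and Abcb1a in wild type (1.60 ± 0.23). Abcb11, the bile salt export pump, was lower in knockout than in wild type on the high-fat diet by 1.07 ± 0.20 on the log2 scale.

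The lists of sex-biased liver genes also differed between these arrays of male liver. Of 17 female-biased genes tested for diet in knockout, 3 rose and 2 fell, and the median over the 15 measured on both arrays was 0.20. Of 16 tested for diet in wild type, 9 rose and 2 fell, and the median was 0.79 over the 13 measured on both arrays. Genes not well above background on both, Cyp2b13 and Cyp2b9 among them, are left out of that median. Between genotypes on the high-fat diet, 0 of 17 were higher and 3 lower in knockout, with a median of 0.16 over 16 genes. On the normal diet 7 of 16 were higher and 0 lower in knockout, with a median of 0.63 over 12 genes. The shares over all tested genes were 4.22% rising and 1.64% falling with diet in knockout, 1.78% and 2.31% with diet in wild type, 2.51% higher and 1.59% lower between genotypes on the high-fat diet, and 1.4% and 2.5% on the normal diet. Cyp2b10, a cytochrome P450, rose by 4.42 ± 0.20 with the diet in wild type, and Cyp2b13, a female-biased P450, was at least 78.1-fold higher there, measured against a wild-type normal-diet signal not well above background. Hamp2, a hepcidin gene, fell by 1.92 ± 0.20 with the diet in knockout and rose by 2.86 ± 0.20 with it in wild type.

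Male-biased genes rose in none of the 5 comparisons, which is near the share over all tested genes. With the diet 7 of 24 fell in knockout (list median -0.54) and 8 of 25 in wild type (-0.80), and 15 of 25 were lower in knockout on the high-fat diet than in wild type on the normal diet (-1.13 over 24 measured on both arrays), where 1.64%, 2.31% and 3.81% of all tested genes fell or were lower. Between genotypes 5 of 25 were lower in knockout on the high-fat diet and 6 of 25 on the normal diet, where 1.59% and 2.5% of all tested genes were lower. Hsd3b5, a male-biased hydroxysteroid dehydrogenase, fell with the diet by 2.95 ± 0.20 on the log2 scale in knockout and by 1.74 ± 0.20 in wild type. Moxd1 fell by 5.15 ± 0.23 with the diet in wild type. On the normal diet it was at least 127-fold lower in knockout, where its signal was not well above background. Of 19 regulators of hepatic Slc22 and sex-biased genes, among them Hnf4a, Stat5b and Ghr, 0 rose or fell with the diet in either genotype, a count near the shares over all tested genes. Nr0b2, the nuclear receptor SHP, was lower in knockout than in wild type on the normal diet by 1.29 ± 0.20, and Foxa3 was lower by 1.17 ± 0.20 in the combined contrast.

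The genes whose 4 values came closest to each transporter were found by the Euclidean distance between mean-centred scaled log2 values, among the 14345 genes that 2 or more arrays detected well above background. Among genes well above background on all 4 arrays, Slc22a29 was closest to Slc22a27 and Slc22a27 to Slc22a29, at a distance of 0.28, and next for Slc22a27 came Plin4, a lipid droplet protein, at 0.51. Abcd2, a peroxisomal carrier of very long chain fatty acids, had smaller computed distances to both. Its value in wild type on the normal diet, -6.42 on the scaled log2 scale, lay below that array's detection floor of -5.55, so its distances rest on a value that was not measured. Slc22a26 was closest to the fatty acid hydroxylases Cyp4a10 (0.17) and Cyp4a31 (0.19) and to the deubiquitinase Usp2 (0.20). Slc22a7 was closest to Prl2c1 (0.11), the peptide transporter Slc15a2 (0.24) and the glutamate transporter Slc1a2 (0.28). Slc22a28 was closest to Abca8a (0.07), 4930568D16Rik (0.11) and Pla1a (0.12), and Slc22a3 to Ercc6 (0.23), Hamp (0.30) and Ttc25 (0.31). With 4 arrays such closeness is a description only.

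**Figure D4:**
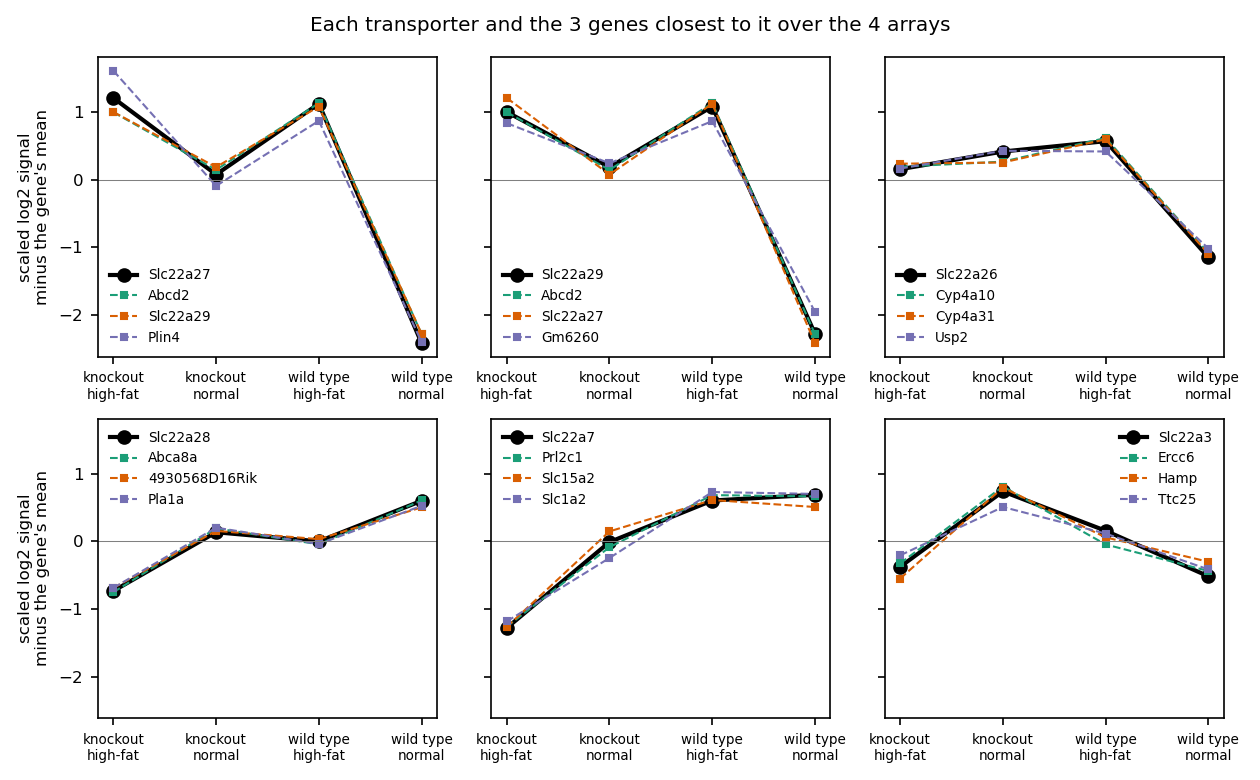
Scaled log2 signal minus the gene's mean over the 4 arrays for each of the 6 transporters (black) and the 3 genes at the smallest distance from it (colours). Slc22a27 and Slc22a29 trace nearly the same line, low in wild type on the normal diet, where Abcd2 was not well above background and the depth of its line was not measured. Gm6260 was well above background on 2 arrays only, and Slc22a7 has its low point in knockout on the high-fat diet.

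Across the series, 23760 to 25184 of 39429 probes were well above background on an array, the 75th percentile of signal was 1002 to 1152, and 0 spots were saturated. The number of arrays limits the precision of every difference given. The brighter probe of Cat, the targeted gene, had scaled log2 signals of 0.95 in knockout on the high-fat diet and 1.13 in knockout on the normal diet, against 4.75 in wild type on the high-fat diet and 4.89 in wild type on the normal diet, so the labelled genotypes matched its signal.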

How the data were processed

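Liver total RNA was measured on 1-colour Agilent mouse arrays of the 44K type with Cy3, 1 array per group, all 4 on 1 slide in 1 scan. Per the file headers, the deposited files are Feature Extraction 11.5.1.1 output, and the column used is spot intensity after the scanner software subtracted background, given with its error. The series' design text also names GeneSpring GX 7.3. The deposited value table holds intensity within 1% of the mean processed signal for 99.8% of probes on each array, so it is linear and uncentred; the medians of its columns were 89.2, 72.4, 75.9 and 79.9 in knockout high-fat, knockout normal, wild-type high-fat and wild-type normal arrays.

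Control spots and outlier-flagged spots were left out, except where every spot of a probe was flagged. The spots of a probe were averaged as log2, and each array's 75th percentile was subtracted. Accessions matched to a RefSeq table (GRCm38.p6, used for names and gene order) named 27508 probes, and 11921 stayed unnamed. A gene was read by its probe of highest mean log2 signal. Calls used the 2-fold rule; where only 1 array was well above background, the dim array was set to the higher of its detection floor and its own signal. Members, lists and rules were chosen with earlier results of these data known. Some genes of these lists are not reported here. Named genes are the members, family genes called, up to 4 called genes of largest difference per list and comparison, and the 3 nearest genes per member. Alternatives were other scalings, background correction, probe choice, detection filter and size rule. Python 3.11.15 was used with numpy 2.4.6, pandas 2.3.3, biopython 1.88 and matplotlib 3.10.9, and limma 3.58.1 (R 4.3.3) gave normexp and quantile values.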

Additional observations from a re-analysis of the deposited data

Results flagged for a closer look

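The high-fat diet went with opposite signs of difference in the 2 genotypes for Slc22a3 and Slc22a26. For Slc22a3 the diet difference was -1.12 ± 0.31 on the log2 scale in knockout and 0.67 ± 0.38 in wild type, so that they differed by -1.79. For Slc22a26 it was -0.26 ± 0.24 in knockout and 1.72 ± 0.34 in wild type, so that they differed by -1.98. Each value rests on 1 array per group and the difference was not tested. The wild-type value of Slc22a3 and the knockout value of Slc22a26 did not reach 2-fold, and both probes were dim. Under normexp the wild-type value of Slc22a3 was 0.13, and the knockout value of Slc22a26 was near the size of its scanner error, so neither sign is secure.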

How the results depend on the processing

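The signs and calls of the 6 transporters were recomputed under other scalings, with the deposited value table, with all probes averaged, with flagged spots kept and with only probes well above background on both arrays. No called difference changed sign. Quantile normalization, median scaling, the value table, probe averaging, flagged spots and the detection filter changed 0 of 36 calls. Without scaling, genes rising with the diet in knockout numbered 2 (Slc22a29 joined at 1.02) and genes falling 1 (Slc22a3 left). Under normexp on median signals, a setting added after seeing the data because the planned mean signal was not a column of the files, 7 of 36 calls were lost, all of Slc22a3 or Slc22a26: 1 transporter fell with diet in knockout, 2 were higher in knockout on the normal diet, and 3 had a diet difference lower in knockout by 2-fold. Slc22a26 came to 0.34 in the combined contrast, and the offset of 50 is of the size of these probes' signals (25.9 to 106). Slc22a27 and Slc22a29 kept their calls under normexp but differed less for diet in wild type, at 2.87 and 2.51 against 3.54 and 3.36. Across all settings the lowest values of their genotype difference on the normal diet were 1.88 and 1.74, against 2.49 and 2.47. With a 1.5-fold rule, 4 rose and 1 fell with diet in wild type, 2 rose with diet in knockout, and Slc22a28 joined those falling there, at -0.87. By that rule 1 was lower in knockout on the normal diet and 2 on the high-fat diet. Over all genes, 206 to 629 were higher and 173 to 575 lower across 6 comparisons, against 114 to 505 and 145 to 388 when both arrays had to be above background, 572 to 1478 and 647 to 1483 at 1.5-fold, 102 to 271 and 93 to 331 under normexp, and 206 to 936 and 114 to 408 without scaling. Median scaling moved the median of all genes by 0.14 for genotype on the normal diet, by -0.11 for diet in knockout and by -0.20 for the difference of diet effects, and the higher share of called genes there to 48.1%, 61.2% and 50.9%, against 35.9%, 72.0% and 74.5%. For the difference of diet effects it gave 308 genes higher and 297 lower, against 505 and 173. Leaving out scaling moved the share to 85.0% for diet in knockout, 77.8% for genotype on the high-fat diet, 69.4% in the combined contrast and 87.0% for the difference of diet effects, against 72.0%, 61.2%, 51.4% and 74.5%. No paired analysis was possible because each group had 1 array, so no replicate could be left out either.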
